A study of Homo sapiens with 18 samples.

Results

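The nuclear receptor superfamily is a family of transcription factors, many of which are switched by small lipophilic ligands such as steroids, retinoids, oxysterols and fatty acids. Its members were taken as every gene in the count tables whose symbol in GENCODE 29 is on a list of 46 nuclear receptor genes, and all 46 were found among the 57500 genes of the tables. The rule uses no measured value.

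The 18 libraries came from THP-1, a line of human monocytic leukaemia cells, transduced with lentivirus carrying a short hairpin RNA (shRNA) and kept in puromycin. The shNT line carried a non-targeting hairpin, the shNR4A2 line a hairpin against *NR4A2* and the shNR4A3 line a hairpin against *NR4A3*. Each line was studied without stimulus (control) and after LPS, the bacterial endotoxin that activates Toll-like receptor 4, at 2.5 μg/ml for 2 h. There were 3 libraries in each of the 6 groups, described by the study as independent experiments. Each knockdown was represented by 1 line, so that the hairpin's target and other properties of the line cannot be told apart. Counts per library ran from 16171161 to 23929138.

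Most nuclear receptors have a zinc finger DNA-binding domain and a ligand-binding domain, while the NR0B receptors lack the former. Those with both bind short hexamer elements alone, as pairs of themselves or with a retinoid X receptor (RXR). Bound to ligand they release corepressors and recruit coactivators. The 3 NR4A receptors need no ligand to act: they are immediate-early genes whose activity follows their amount, and in monocytes and macrophages they are known as rapidly induced by inflammatory stimuli. The glucocorticoid receptor, the liver X receptors (LXR) and the peroxisome proliferator-activated receptors (PPAR) are best known in these cells for restraining inflammatory transcription.

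All 10 monocytic markers examined had a median of at least 1 TPM (a count divided by exon length and then by the sum of such values in its library, so that genes can be compared per length), and *SPI1* was the most abundant. None of 4 T cell, 3 erythroid, 3 epithelial and 3 fibroblast markers reached a median of 1 TPM. The B cell marker *CD79A* had a median of 1.79 TPM (0.492 to 3.48 TPM), and *MS4A1*, another, a median of 0 and at most 0.0675 TPM. Of 3 endothelial markers 1 reached a median of 1 TPM: *PECAM1*, which monocytes also express, and the 3 summed to between 115 and 289.6 TPM in each library.

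Windows of 250 bases before to 50 bases after RefSeq transcription starts (GRCh38) were matched by symbol for 41 of the 46 receptors, with 96 windows. *NR4A2*, *NR2F6*, *VDR*, *HNF4G* and *NR0B2* were not matched. Each window was searched on both strands for the NBRE, AAAGGTCA, the element that an NR4A monomer binds, and for the cyclic AMP response element, TGACGTCA, which reads the same on both strands. The NBRE letters stood in windows of 4 receptors, *PPARG*, *ESRRG*, *ESR2* and *NR2E1*, that is in 4.17% of the 96 windows and in 1.22% of all 35116 windows of the table. The cyclic AMP response element stood in windows of *NR6A1* and *NR2E1*, in 2.08% of receptor windows and in 1.85% of all windows. The first 6 letters of that element, TGACGT, chosen after the sequences had been seen, stood in windows of 7 receptors, in 7.29% of receptor windows against 7.98% of all windows, and 3 times in 1 window of *NR4A3*. *ESRRG*, *ESR2* and *NR2E1* were under 1 TPM in every group. Shown here are 30 bases around the matches of *PPARG* and *NR6A1*, the receptors with a match to a whole element that were called in shNR4A2 cells with LPS, and of *NR4A3*, the receptor with the greatest rise with LPS. They are written 5′ to 3′ on the strand of the gene, with the motif in capitals.
PPARG: gcaggaaaagaAAAGGTCActgtctaccca
NR6A1: gcagcggcgtgTGACGTCAggggagggagc
NR4A3 a: ggaggaggagggTGACGTagcgtcccatgg
NR4A3 b: atggcgtcacatTGACGTctcgcattccag
NR4A3 c: ctgtggcataaaTGACGTgccgagagagcg

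The *PPARG* stretch lies at chr3:12287171-12287200 on the plus strand, with the motif starting 186 bases before the RefSeq start. The *NR6A1* stretch lies at chr9:124771317-124771346 on the minus strand, with the motif 24 bases before the start. The *NR4A3* stretches lie on the plus strand at chr9:99821764-99821793, chr9:99821790-99821819 and chr9:99821848-99821877, with motifs 109, 83 and 25 bases before the RefSeq start. The annotation in the files starts *NR4A3* at base 99821855 of the chromosome, upstream of the last of these motifs. A match of letters is not evidence of binding, and binding was not measured in these libraries.

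Of the 46 receptors, 27 had a group mean of at least 1 TPM in at least 1 group. For 20 of them the highest group mean was 10 TPM or more, for 7 it lay between 1 and 10, and 19 stayed under 1 TPM, 10 of them under 0.1. By role, 2 of 4 clock receptors, 2 of 3 RXRs, 6 of 8 lipid and xenobiotic sensors, 6 of 11 classic steroid, thyroid, retinoid and vitamin D receptors, 8 of 15 other orphan receptors and all 3 NR4A receptors were expressed by this measure, and neither NR0B receptor was. The 19 receptors that stayed under 1 TPM were *THRB*, *RARB*, *ESR1*, *ESR2*, *NR3C2*, *RORA*, *RORB*, *NR1H4*, *NR1I2*, *RXRG*, *HNF4A*, *NR2E1*, *NR2E3*, *ESRRB*, *ESRRG*, *NR5A1*, *NR5A2*, *NR0B1* and *NR0B2*. Among them are both oestrogen receptors and the mineralocorticoid receptor *NR3C2*. Of the expressed sensors, *NR1I3* had a highest group mean of 2.07 TPM. Its exons overlap those of TOMM40L on the opposite strand over 20% of their length. Those of *NR2C2* overlap MRPS25 and FGD5-AS1, also on the opposite strand, over 11.4%. The part of shared reads in these levels was not tested. *RXRG* had no count in any library, which at 3 counts per library allows up to 0.125 to 0.186 CPM (counts scaled to library size), for counting error only.

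**Figure D1:**
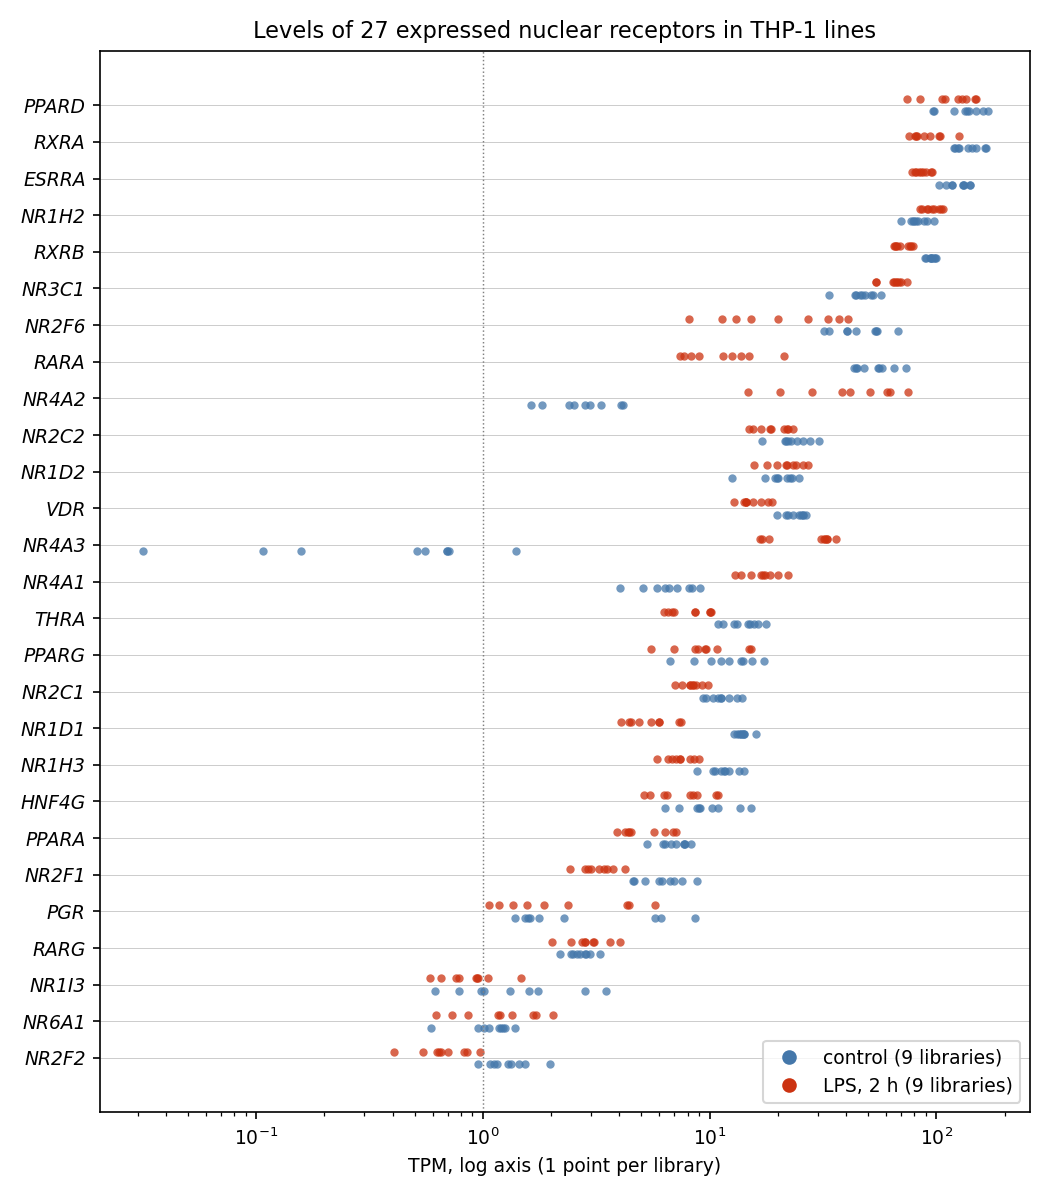
Level of each of the 27 expressed receptors in TPM on a log axis, 1 point per library, blue for the 9 control and red for the 9 LPS libraries; the dotted line marks 1 TPM. *PPARD*, *RXRA*, *ESRRA*, *NR1H2* and *RXRB* lead, and *NR4A2* and *NR4A3* have separate clusters of control and LPS libraries.

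The 5 most abundant receptors were *PPARD*, *RXRA*, *ESRRA*, *NR1H2* and *RXRB*, by the mean over 18 libraries. *PPARD* (PPARδ) is a fatty acid sensor, *RXRA* and *RXRB* are the shared dimer partners, *ESRRA* is an orphan regulator of mitochondrial genes and *NR1H2* encodes the oxysterol receptor LXRβ. In shNT control cells *RXRA* stood at 122 ± 2.82 TPM, *ESRRA* at 110.4 ± 7.38 TPM, *PPARD* at 109 ± 20.7 TPM, *RXRB* at 96.6 ± 2.88 TPM and *NR1H2* at 78.001 ± 7.2 TPM (mean ± SD, n = 3, here and below). The *PPARD* libraries overlapped those of *RXRA*, *ESRRA* and *RXRB*, so that this order is set no more finely than the spread of *PPARD*. *RXRB* libraries of shNT held 96.1, 94.01 and 99.7 TPM without LPS and 74.8, 66.7 and 79.1 TPM with LPS. Those of shNR4A2 held 89.2, 94.8 and 98.3 TPM without LPS and 66.04, 64.9 and 76.97 TPM with LPS, and those of shNR4A3 97.6, 95.2 and 89.9 TPM without LPS and 67.02, 69.3 and 76.5 TPM with LPS. *RXRB* was called in none of the 9 comparisons between groups described below.

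In shNT cells LPS changed 15 of the 30 receptors that passed the filter on low counts: 7 rose and 8 fell (edgeR quasi-likelihood test, Benjamini-Hochberg adjusted p under 0.05 over all genes tested). Of all 15711 genes tested, 24.9% were called in this comparison, 11.6% higher and 13.3% lower. The rises were those of *NR4A3*, *NR4A2*, *NR5A2*, *NR4A1*, *NR3C1*, *NR1H2* and *NR1D2*, and the falls those of *RARA*, *NR1D1*, *NR2F1*, *NR2F6*, *THRA*, *NR1H3*, *VDR* and *RXRA*. The median log2 fold change of the receptors tested was -0.19, beside -0.01 for all genes tested. In bulk RNA, fewer cells with a transcript and less of it per cell cannot be told apart. In shNR4A3 cells 16 of 30 receptors were called, 7 higher and 9 lower, where 28.1% of all genes tested were called, 13.1% higher and 15.0% lower. In shNR4A2 cells 7 of 29 were called, 5 higher and 2 lower, beside 19.3% of all genes (9.23% higher and 10.1% lower). Adding a block for the replicate number, 13 receptors and 30.1% of all genes were called there, with *THRA*, *NR1H3*, *VDR*, *RXRA*, *NR2F6* and *ESRRA* added as lower (adjusted p from 0.00357 to 0.0315). In shNR4A3 cells, where 39.4% of all genes were called under the block, it added *RARG* as higher (log2 fold change 0.57 ± 0.21 SE, adjusted p = 0.0588 without the block and 0.0275 with it) and *NR1H3* as lower (-0.36 ± 0.14, adjusted p = 0.0785 and 0.0312).

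Over the 3 lines 17 of 31 receptors tested in any line were called at least once (54.8%), beside 33.7% of all 16296 genes so tested. *NR4A1*, *NR4A2*, *NR4A3*, *NR3C1* and *NR1H2* rose in all 3 lines, and *RARA* and *NR1D1* fell in all 3. A further 7 were called in 2 lines and 3 in 1 line, and no receptor was called in opposite directions. Calls in all 3 lines thus made up 22.6% of the receptors, in 2 lines 22.6% and in 1 line 9.68%, beside 14.3%, 6.94% and 12.5% of all genes, 2 of which were called in opposite directions. TPM and the fold changes of the test are on different scales: with LPS the median gene's TPM ratio lay 0.22 (shNT), 0.27 (shNR4A2) and 0.23 (shNR4A3) log2 units below its fitted fold change, which is scaled by TMM. A receptor whose TPM is level between control and LPS therefore has a slightly positive fold change. Between lines this offset was at most 0.06 log2 units in size.

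**Figure D2:**
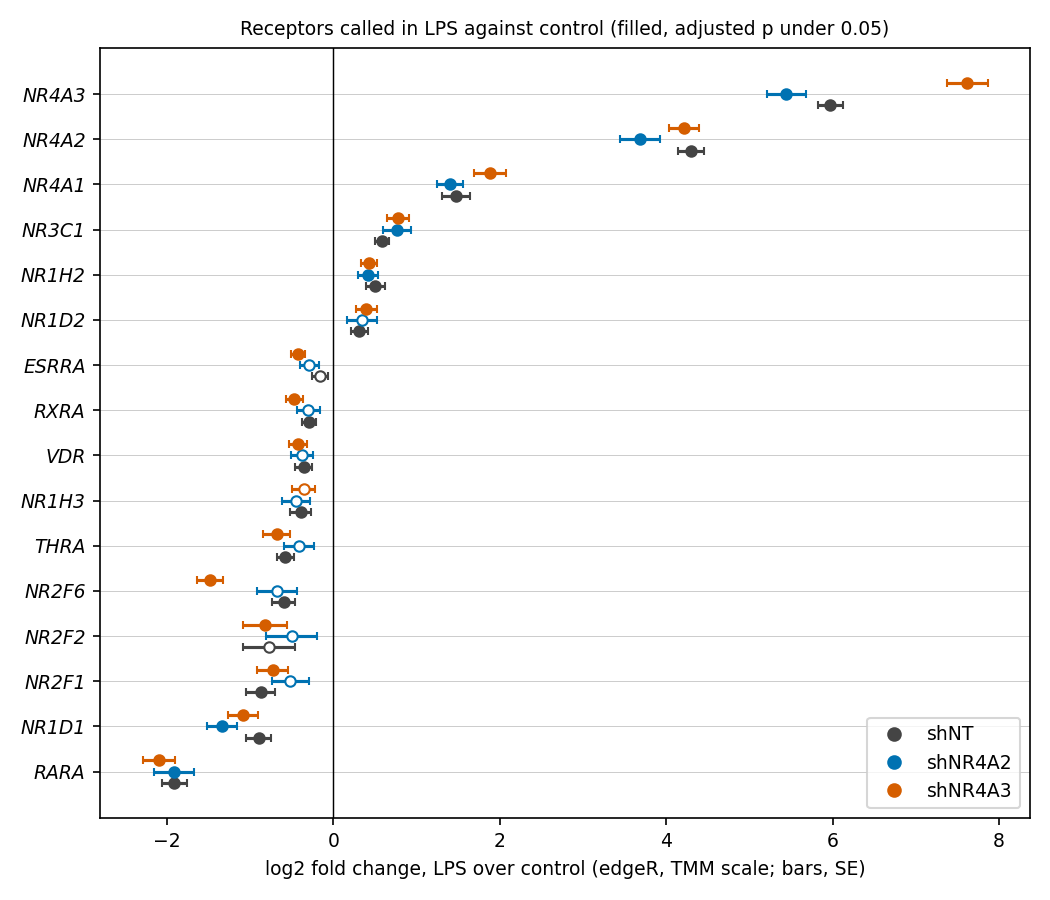
Log2 fold change of LPS over control with its SE (bars), in shNT, shNR4A2 and shNR4A3 cells, for 16 receptors called in at least 1 line; filled points passed an adjusted p of 0.05. *NR4A3* and *NR4A2* lie far to the right of the rest in each line and *RARA* farthest to the left. *NR5A2*, with few counts, is not drawn.

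The NR4A receptors had the greatest rises with LPS of the receptors with more than a few counts. *NR4A1* (Nur77; chr12:52022832-52059507, plus strand, GRCh38 as in the files) libraries held 9.08, 7.16 and 6.34 TPM without LPS and 22.1, 18.5 and 13.8 TPM with LPS in shNT cells, 6.603, 8.101 and 5.89 TPM without LPS and 15.2, 17.2 and 12.98 TPM with LPS in shNR4A2 cells and 4.02, 8.37 and 5.104 TPM without LPS and 17.6, 20.03 and 16.9 TPM with LPS in shNR4A3 cells. In every line the lowest LPS library lay above the highest control library. The log2 fold change (± SE, here and below) was 1.48 ± 0.17, adjusted p = 1.95e-05 in shNT, 1.40 ± 0.16, adjusted p = 5.12e-05 in shNR4A2 and 1.88 ± 0.19, adjusted p = 3.63e-05 in shNR4A3 cells. *NR4A2* (Nurr1; chr2:156324432-156342348, minus strand) held 4.16, 2.83 and 4.08 TPM without LPS and 62.2, 74.7 and 51.3 TPM with LPS in shNT cells. In shNR4A2 cells it stood at 1.82, 1.63 and 2.41 TPM without LPS and 20.5, 28.3 and 14.8 TPM with LPS, and in shNR4A3 cells at 2.51, 2.97 and 3.31 TPM without LPS and 41.8, 60.7 and 38.3 TPM with LPS. The line with the *NR4A2* hairpin thus still had several times more *NR4A2* RNA with LPS than without: the log2 fold change was 3.69 ± 0.24, adjusted p = 2.50e-07, beside 4.29 ± 0.16 in shNT and 4.22 ± 0.18 in shNR4A3 cells. *NR4A3* (NOR1; chr9:99821855-99866891, plus strand) stood at 0.556, 0.693 and 0.512 TPM without LPS and 30.9, 32.3 and 31.9 TPM with LPS in shNT cells. The shNR4A2 libraries held 0.707, 0.694 and 1.41 TPM without LPS and 32.997, 32.8 and 36.1 TPM with LPS, and the shNR4A3 libraries 0.158, 0.107 and 0.0315 TPM without LPS and 17.03, 18.2 and 16.7 TPM with LPS. Its control level was the lowest of the NR4A receptors in all 3 lines and its fold change the greatest, at 5.97 ± 0.15, adjusted p = 1.32e-12 in shNT, 5.44 ± 0.23, adjusted p = 5.49e-09 in shNR4A2 and 7.62 ± 0.24, adjusted p = 3.06e-09 in shNR4A3 cells. The shNR4A3 control libraries held 9 *NR4A3* counts in all against 1726 with LPS, so that the ratio per count of 178 has an exact 95% counting interval of 93.6 to 390.1. The *NR4A1* exons overlap those of AC025259.3 on the opposite strand over 10.3% of their length, and that gene had at most 3 counts in any group.

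**Figure D3:**
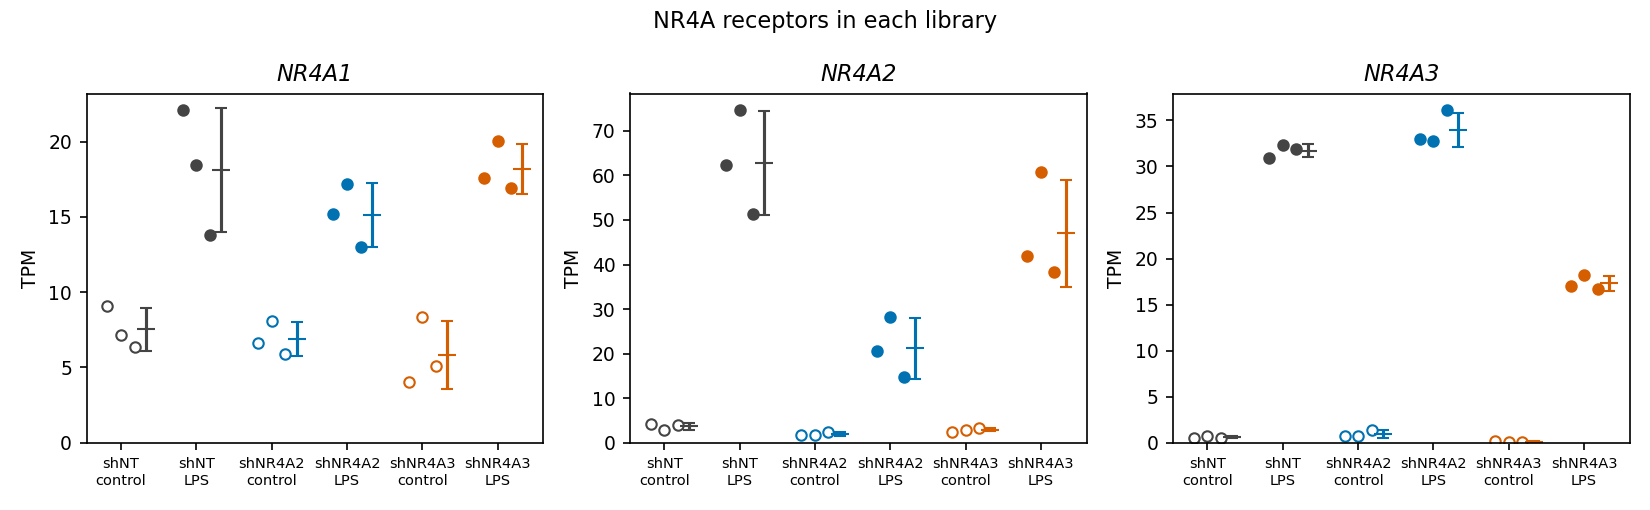
TPM of *NR4A1*, *NR4A2* and *NR4A3* in each library (open, control; filled, LPS; replicates 1 to 3 from left to right), with the mean and SD of 3 beside them. In each line all LPS points lie above all control points, *NR4A2* with LPS is lowest in shNR4A2 cells and *NR4A3* with LPS is lowest in shNR4A3 cells.

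The make-up of the receptor pool shifted with these rises. In shNT control cells the 3 NR4A receptors made up 1.36 ± 0.145% of the summed TPM of the 46 receptors (1.27 to 1.53%). With LPS they made up 14.3 ± 1.16% (13.6 to 15.6%). In shNR4A2 cells their share was 1.05 ± 0.0801% without and 9.22 ± 0.324% with LPS, and in shNR4A3 cells 0.968 ± 0.22% without and 10.6 ± 1.33% with LPS. The share includes the target of each hairpin, so that its lower values in the knockdown lines with LPS (8.85 to 9.48% and 9.69 to 12.1%) include the knockdown itself. In shNR4A3 cells with LPS *NR4A3* averaged 17.3 TPM, against 31.7 TPM in shNT. *NR4A2*, not the target there, averaged 46.97 TPM against 62.7 TPM (adjusted p = 0.198, and 0.00132 with the block). The part of each gene in the lower share was not tested. The other 43 receptors summed to 852 ± 31.4 TPM without and 676 ± 57.2 TPM with LPS in shNT cells, on the TPM scale with the offset given above.

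Among the classic receptors *RARA* had the largest fall. *RARA* (chr17:40309192-40357643, plus strand) encodes retinoic acid receptor α, a regulator of myeloid differentiation. Its shNT libraries held 48.1, 44.7 and 44.5 TPM without LPS and 12.6, 11.5 and 7.41 TPM with LPS. The shNR4A2 libraries held 64.99, 73.2 and 55.8 TPM without LPS and 13.7, 21.3 and 8.31 TPM with LPS, and the shNR4A3 libraries 55.2, 57.9 and 43.3 TPM without LPS and 8.98, 14.97 and 7.68 TPM with LPS. The highest LPS library of any line lay below the lowest control library of any line, and the fall was 3.76-fold in shNT, 3.78-fold in shNR4A2 and 4.28-fold in shNR4A3 cells (log2 -1.91 ± 0.15, adjusted p = 4.09e-07; -1.92 ± 0.24, adjusted p = 0.000113; -2.10 ± 0.20, adjusted p = 1.71e-05). *RARA* exons overlap those of *RARA-AS1* and AC080112.3, both on the opposite strand, over 17.9% of their length. Both partners also had fewer counts with LPS in every line. *RARA-AS1* had 48 counts without and 28 with LPS in shNT cells (log2 -0.69 ± 0.38, adjusted p = 0.219), 47 and 25 in shNR4A2 cells, where it did not pass the filter, and 43 and 15 in shNR4A3 cells, where it was called lower (log2 -1.39 ± 0.46, adjusted p = 0.0422). AC080112.3 had 42 and 6 counts in shNT cells (log2 -2.67 ± 0.61, adjusted p = 0.00546) and 60 and 4 in shNR4A2 cells (log2 -3.40 ± 0.62, adjusted p = 0.0018), called lower in both, and 36 and 13 in shNR4A3 cells, where it did not pass the filter. *RARA* itself had 3417 and 862 counts in shNT, 5419 and 1094 in shNR4A2 and 3549 and 765 in shNR4A3 cells. The part of shared reads in these values was not tested. *RARG*, the related receptor γ, was not called, with 2.81 ± 0.434 TPM without and 2.902 ± 0.149 TPM with LPS in shNT cells (log2 0.27 ± 0.19, adjusted p = 0.353).

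*NR3C1*, the glucocorticoid receptor, rose in each line. Its shNT libraries held 52.7, 46.1 and 56.98 TPM without LPS and 69.9, 64.7 and 64.96 TPM with LPS, its shNR4A2 libraries 51.7, 33.6 and 48.5 TPM without LPS and 66.4, 54.5 and 66.9 TPM with LPS and its shNR4A3 libraries 44.4, 43.7 and 47.1 TPM without LPS and 74.3, 54.3 and 68.6 TPM with LPS. Control and LPS libraries did not overlap within a line. The log2 fold change was 0.58 ± 0.09, adjusted p = 0.000183 in shNT, 0.76 ± 0.17, adjusted p = 0.00651 in shNR4A2 and 0.78 ± 0.13, adjusted p = 0.00128 in shNR4A3 cells. *THRA*, thyroid hormone receptor α, fell. It stood at 15.7, 15.1 and 16.3 TPM without LPS and 8.61, 10.02 and 8.598 TPM with LPS in shNT cells. In shNR4A2 cells it stood at 11.5, 14.7 and 10.9 TPM without LPS and 6.97, 10.2 and 6.31 TPM with LPS, and in shNR4A3 cells at 13.1, 17.8 and 12.8 TPM without LPS and 6.53, 10.02 and 6.83 TPM with LPS. The fall was called in shNT (-0.58 ± 0.10, adjusted p = 0.000768) and shNR4A3 cells (-0.68 ± 0.16, adjusted p = 0.00759), and in shNR4A2 cells with the block (-0.41 ± 0.18, adjusted p = 0.141 and 0.0155 with the block). *VDR*, the vitamin D receptor, stood at 22.2, 19.8 and 21.7 TPM without LPS and 14.5, 15.5 and 12.8 TPM with LPS in shNT cells, 24.8, 26.5 and 25.9 TPM without LPS and 16.8, 18.2 and 14.5 TPM with LPS in shNR4A2 cells and 23.3, 25.8 and 25.3 TPM without LPS and 14.2, 18.8 and 14.5 TPM with LPS in shNR4A3 cells. All LPS libraries lay under all control libraries of their line. The fall was called in shNT (-0.36 ± 0.10, adjusted p = 0.0185) and shNR4A3 cells (-0.43 ± 0.11, adjusted p = 0.0115). The shNT call was lost without control replicate 1 (adjusted p = 0.0866) or LPS replicate 3 (adjusted p = 0.0767), and the shNR4A3 call without LPS replicate 1 (adjusted p = 0.0533) or 3 (adjusted p = 0.0638). In shNR4A2 cells *VDR* was called with the block (-0.38 ± 0.13, adjusted p = 0.0569 without it and 0.0208 with it).

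Of the RXRs, *RXRA* fell. Its shNT libraries held 125, 119 and 121 TPM without LPS and 88.4, 93.6 and 75.7 TPM with LPS. Those of shNR4A2 held 150.01, 165 and 143 TPM without LPS and 103, 126 and 81.8 TPM with LPS, and those of shNR4A3 126, 164 and 139 TPM without LPS and 81.4, 103 and 80.7 TPM with LPS. Control and LPS libraries were apart within each line, and the control libraries of both knockdown lines lay above those of shNT. The log2 fold change with LPS was -0.29 ± 0.08, adjusted p = 0.0207 in shNT and -0.47 ± 0.10, adjusted p = 0.00504 in shNR4A3 cells. The shNT call was lost without control replicate 1 (adjusted p = 0.0753), control replicate 2 (adjusted p = 0.0592) or LPS replicate 3 (adjusted p = 0.0982). In shNR4A2 cells the value was -0.30 ± 0.14 (adjusted p = 0.159, and 0.0258 with the block). *RXRB* was not called in any line (log2 -0.17 ± 0.09, adjusted p = 0.218 in shNT), although its LPS libraries also lay below its control libraries on the TPM scale.

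The 2 LXR genes moved in opposite directions in shNT cells. *NR1H2* (LXRβ) libraries held 81.4, 82.9 and 69.7 TPM without LPS and 108, 92.2 and 86.7 TPM with LPS in shNT cells, 79.2, 90.9 and 77.1 TPM without LPS and 91.2, 97.98 and 84.9 TPM with LPS in shNR4A2 cells and 87.999, 97.3 and 79.6 TPM without LPS and 105, 103 and 95.8 TPM with LPS in shNR4A3 cells. The libraries overlapped in both knockdown lines and not in shNT. *NR1H2* rose in shNT (0.51 ± 0.11, adjusted p = 0.004), shNR4A2 (0.41 ± 0.12, adjusted p = 0.0284) and shNR4A3 cells (0.43 ± 0.09, adjusted p = 0.00605). The shNR4A2 call was lost without control replicate 1 (adjusted p = 0.105), control replicate 3 (adjusted p = 0.129) or LPS replicate 1 (adjusted p = 0.104). *NR1H3* (LXRα), the form that macrophages regulate, held 13.5, 11.2 and 12.2 TPM without LPS and 7.38, 8.55 and 8.23 TPM with LPS in shNT cells. In shNR4A2 cells it held 11.5, 14.3 and 11.7 TPM without LPS and 6.55, 8.95 and 7.39 TPM with LPS, and in shNR4A3 cells 8.79, 10.3 and 10.6 TPM without LPS and 5.87, 6.83 and 7.09 TPM with LPS. Each LPS library lay below each control library of its line. The fall in shNT cells (-0.39 ± 0.13, adjusted p = 0.0358) was lost on leaving out any of 5 of the 6 libraries, with adjusted p from 0.0502 to 0.16. None of the 3 PPAR genes was called with LPS in any line. *PPARD*, *PPARG* and *PPARA* had log2 fold changes of 0.01 ± 0.17, -0.25 ± 0.14 and -0.20 ± 0.13 in shNT cells.

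The clock receptors *NR1D1* (REV-ERBα) and *NR1D2* (REV-ERBβ), haem-binding repressors of the circadian oscillator, also went opposite ways in shNT cells. *NR1D1* stood at 13.2, 14.2 and 13.5 TPM without LPS and 5.97, 7.47 and 5.51 TPM with LPS in shNT cells, at 12.9, 13.8 and 14.2 TPM without LPS and 4.52, 4.88 and 4.07 TPM with LPS in shNR4A2 cells and at 13.7, 14.04 and 15.9 TPM without LPS and 4.399, 7.31 and 5.98 TPM with LPS in shNR4A3 cells. Every LPS library was below every control library. *NR1D1* fell by 1.86-fold in shNT (-0.90 ± 0.15, adjusted p = 0.00061), 2.53-fold in shNR4A2 (-1.34 ± 0.18, adjusted p = 0.00017) and 2.13-fold in shNR4A3 cells (-1.09 ± 0.18, adjusted p = 0.000937). *NR1D1* and *THRA* lie tail to tail on opposite strands and share 263 exonic bases, 9.49% of *NR1D1* and 3.78% of *THRA*. Whether counting used strand is not stated, so the part of each one's fall that comes from shared reads was not tested. *NR1D2* held 22, 19.5 and 23.04 TPM without LPS and 23.4, 25.8 and 19.8 TPM with LPS in shNT cells. It held 20.1, 12.6 and 19.8 TPM without LPS and 17.95, 21.99 and 15.7 TPM with LPS in shNR4A2 and 17.5, 22.6 and 24.8 TPM without LPS and 21.8, 27.1 and 24.2 TPM with LPS in shNR4A3 cells. Its groups overlapped in every line. Its rise on the TMM scale was called in shNT (0.31 ± 0.10, adjusted p = 0.0407) and shNR4A3 cells (0.40 ± 0.12, adjusted p = 0.0326), and lost on leaving out any of 5 of the 6 shNT libraries (adjusted p 0.0682 to 0.128) or any of 4 of the 6 shNR4A3 libraries (adjusted p 0.0514 to 0.118). *RORA* and *RORB*, which activate what the REV-ERBs repress, were under 1 TPM.

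Of the remaining orphan receptors, the COUP-TF genes *NR2F1*, *NR2F2* and *NR2F6* were all lower with LPS in at least 1 line. *NR2F1* stood at 6.19, 7.58 and 8.78 TPM without LPS and 3.73, 3.26 and 3.52 TPM with LPS in shNT, 4.62, 6.99 and 6.696 TPM without LPS and 3.42, 4.23 and 3.01 TPM with LPS in shNR4A2 and 4.65, 5.17 and 5.97 TPM without LPS and 2.81, 2.92 and 2.43 TPM with LPS in shNR4A3 cells. No LPS library reached a control library of its line. The fall was called in shNT (-0.87 ± 0.17, adjusted p = 0.00174) and also in the shNR4A3 line (-0.73 ± 0.19, adjusted p = 0.0135), there lost without replicate 3 of control (adjusted p = 0.0617) or of LPS (adjusted p = 0.0649). *NR2F6* (EAR2), a repressor of cytokine genes in lymphocytes, held 55.003, 67.5 and 54.4 TPM without LPS and 33.1, 40.6 and 27.3 TPM with LPS in shNT cells. The shNR4A2 libraries held 40.2, 53.8 and 44.02 TPM without LPS and 20.01, 37.3 and 15.3 TPM with LPS, and the shNR4A3 libraries 31.9, 40.4 and 33.5 TPM without LPS and 8.08, 13.1 and 11.3 TPM with LPS. Control and LPS libraries were apart in each line, by the widest margin in shNR4A3 cells. *NR2F6* fell 1.51-fold in shNT (-0.60 ± 0.14, adjusted p = 0.00553) and 2.79-fold in shNR4A3 cells (-1.48 ± 0.15, adjusted p = 3.76e-05). In shNR4A2 cells the value was -0.68 ± 0.24 (adjusted p = 0.0675, and 0.00357 with the block). *NR2F2* and *ESRRA* were called lower in shNR4A3 cells. *NR2F2* (-0.82 ± 0.26, adjusted p = 0.037) lost its call on leaving out any of 5 of the 6 libraries, with adjusted p from 0.0724 to 0.119. *ESRRA* (-0.42 ± 0.09, adjusted p = 0.00374) kept its call without each library in turn. Its exons overlap TRMT112 on the opposite strand over 9.37% of their length, and TRMT112 had 4059 counts without and 3794 with LPS in shNR4A3 cells (log2 -0.01 ± 0.09, adjusted p = 0.948), where *ESRRA* had 6037 and 4197. *RXRB* shares 6.22% of its exons with SLC39A7 and *NR1H3* 4.17% with ACP2, neither of which was called in any of these comparisons.

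*NR5A2* (LRH-1), a phospholipid-binding receptor of liver and gut, was near the floor of detection without LPS and rose with it. Its shNT libraries held 0, 1 and 5 counts without LPS and 16, 14 and 21 counts with LPS. Those of shNR4A3 held 1, 0 and 1 counts without LPS and 19, 11 and 22 counts with LPS, and those of shNR4A2 1, 8 and 5 counts without LPS and 10, 8 and 26 counts with LPS. Counts were higher in every LPS library than in any control library of shNT and of shNR4A3. The ratio per count was 7.9 in shNT (exact 95% counting interval 3.39 to 22.5), 24.1 in shNR4A3 (6.36 to 204.6) and 3.58 in shNR4A2 cells (1.93 to 7.08). *NR5A2* was called in shNT (adjusted p = 0.00246) and shNR4A3 cells (adjusted p = 0.000274) and did not pass the filter on low counts in shNR4A2 cells. Its highest group mean was 0.425 TPM.

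The genes around the receptors were taken from lists of coregulators, ligand enzymes and target genes. *CYP24A1*, *CYP26A1* and *DHRS3* of the ligand list also stand on that of vitamin D and retinoid targets, which holds the receptor *RARB* too. *PER1* stands on both the glucocorticoid receptor target and the clock list. Counts and medians of the lists are thus not fully separate. The list counts with LPS stand beside the 24.9% of all genes called in shNT, 19.3% in shNR4A2 and 28.1% in shNR4A3 cells, against which no list was tested. In shNT cells with LPS, 3 of 13 coactivators tested rose and 3 fell, and 1 of 11 corepressors rose. *NCOA7*, an LPS-inducible member of the coactivator list, had a log2 fold change of 3.65 ± 0.09, adjusted p = 9.84e-13, and *PPARGC1B*, the mitochondrial coactivator PGC-1β, fell (log2 -1.37 ± 0.18, adjusted p = 8.72e-05). Of 11 genes of ligand synthesis and clearance 2 rose and 1 fell. *ALDH1A1*, which makes retinoic acid, went from 0.201 ± 0.0172 TPM without to 5.998 ± 3.12 TPM with LPS (5.08 ± 0.49, adjusted p = 3.59e-06). Of 9 LXR targets, *NR1H3* among them, none rose and 2 fell, of 6 PPAR targets 1 rose and 1 fell, and of 5 vitamin D and retinoid targets 1 rose and 1 fell. *PDK4*, a PPAR target that restrains glucose oxidation, fell (-3.07 ± 0.26, adjusted p = 8.16e-07), as did *THBD*, the retinoid and vitamin D responsive anticoagulant thrombomodulin (-2.43 ± 0.15, adjusted p = 2.69e-08). Of 7 glucocorticoid receptor targets 3 rose and 2 fell, and of 13 clock genes 2 rose and 3 fell. *BHLHE41*, a repressor of the clock, rose (3.90 ± 0.43, adjusted p = 1.39e-05). The list medians ran from -0.38 for vitamin D and retinoid targets to 0.36 for ligand genes, beside -0.01 for all genes.

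In shNR4A2 cells 3 coactivators rose and 1 fell of 13, 3 glucocorticoid receptor targets rose and 1 fell of 8, and 2 clock genes rose and 4 fell of 14. In shNR4A3 cells 5 coactivators rose and 3 fell of 13, 4 glucocorticoid receptor targets rose and none fell of 8, and 3 clock genes rose and 4 fell of 14. *ALDH1A1*, *BHLHE41* and *DUSP1* had the largest rises on the lists in shNR4A2 cells (5.19 ± 0.49, 3.93 ± 0.40 and 3.83 ± 0.19). *ALDH1A1*, *BHLHE41* and *SGK1* had them in shNR4A3 cells (6.45 ± 0.64, 3.72 ± 0.40 and 3.54 ± 0.26). *DUSP1*, a phosphatase of MAP kinases, and *SGK1*, a serum- and glucocorticoid-induced kinase, are glucocorticoid receptor targets that inflammatory signals also induce. Of LXR targets none rose in either line, and 1 of 9 fell in shNR4A2 and 2 of 9 in shNR4A3 cells. *PDK4*, *THBD* and *PPARGC1B* had the largest falls in shNR4A2 cells (-2.38 ± 0.26, -2.07 ± 0.20 and -1.65 ± 0.22). *PDK4*, *THBD* and *DBP*, a clock output gene, had them in shNR4A3 cells (-2.55 ± 0.21, -1.65 ± 0.20 and -1.63 ± 0.25). Corepressors had 2 of 11 higher and none lower in each line, genes of ligand synthesis and clearance 2 of 12 higher and 1 lower in shNR4A2 and 3 of 11 higher and 2 lower in shNR4A3. PPAR targets had 1 of 7 higher in each line, with 1 lower in shNR4A2 and 2 in shNR4A3. Vitamin D and retinoid targets had none higher, with 1 of 6 lower in shNR4A2 and 2 of 5 in shNR4A3. Under the block 30.1% of all genes were called in shNR4A2 cells, in place of 19.3%. List calls there numbered 7 in place of 3 for ligand genes and 2 in place of 1 for LXR targets. For vitamin D and retinoid targets they numbered 3 in place of 1. In shNR4A3 cells 1 glucocorticoid receptor target was lower under the block, where 39.4% of all genes were called.

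The knockdown lines were compared with shNT in each state. The 4 comparisons share the shNT libraries in pairs, and they are given side by side for that reason. The targeted gene was lower in each line. *NR4A2* in shNR4A2 cells was 1.88-fold lower without LPS (-0.91 ± 0.23, adjusted p = 0.0359) and 2.86-fold lower with LPS (-1.52 ± 0.19, adjusted p = 0.00265). The call without LPS was lost without shNT control replicate 1 (adjusted p = 0.124) or 3 (adjusted p = 0.114), or shNR4A2 control replicate 1 (adjusted p = 0.0966) or 2 (adjusted p = 0.0728). *NR4A3* in shNR4A3 cells was 5.55-fold lower without LPS (-2.47 ± 0.49, adjusted p = 0.00767), where it had 9 counts over 3 libraries against 58 in shNT. With LPS it was 1.76-fold lower (-0.82 ± 0.08, adjusted p = 0.000556). The receptor not targeted was not called in either line. *NR4A3* in shNR4A2 cells differed from shNT by 0.68 ± 0.34 without (adjusted p = 0.292) and 0.16 ± 0.10 with LPS (adjusted p = 0.377), although its libraries lay above those of shNT in both states. *NR4A2* in shNR4A3 cells differed by -0.29 ± 0.21 without LPS and by -0.36 ± 0.16 with LPS, where the adjusted p was 0.198 and became 0.00132 with the replicate number as a block. *NR4A1* was called in neither line in either state, with values from -0.34 ± 0.22 to 0.06 ± 0.14 in shNR4A3 cells and of -0.13 ± 0.18 and -0.21 ± 0.16 in shNR4A2 cells.

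Receptors outside the NR4A genes were called in every comparison with shNT. In shNR4A2 cells without LPS 3 of 29 receptors tested were called (*RARA* higher, *PGR* and *NR4A2* lower), beside 6.45% of all genes tested (3.63% higher and 2.82% lower). With LPS 4 of 30 were called (*PPARG* higher, *PGR*, *NR4A2* and *NR6A1* lower), beside 6.96% (4.31% higher and 2.65% lower). In shNR4A3 cells without LPS 6 of 29 were called (*PPARD* and *ESRRA* higher, *NR4A3*, *PGR*, *NR2F6* and *HNF4G* lower), beside 7.23% (3.91% higher and 3.32% lower). With LPS 3 of 29 were called (*NR2F6*, *PGR* and *NR4A3* lower), beside 6.45% (3.99% higher and 2.46% lower). Each of these counts includes the gene that the line's hairpin targets. Adding a block for the replicate number changed these counts to 11, 10, 11 and 6, beside 23.6%, 28.1%, 14.8% and 21.8% of all genes. The block added *RXRA* and *VDR* as higher in both lines without LPS and in shNR4A2 cells with LPS, with log2 values from 0.26 to 0.33 and adjusted p from 0.000446 to 0.038. *PPARD* was added as higher in shNR4A2 cells in both states (adjusted p = 0.000657 and 1.95e-06) and in shNR4A3 cells with LPS (adjusted p = 0.000101). *NR2F6* was added as lower in shNR4A2 cells without LPS (-0.36, adjusted p = 0.0044) and with LPS (-0.48, adjusted p = 0.000242). *NR1D2* was added as lower in shNR4A2 cells in both states (adjusted p = 0.0422 and 0.0132). The remaining additions were *THRA* and *HNF4G* lower and *ESRRA* higher in shNR4A2 cells without LPS, *RARA* higher there with LPS, *PPARG* and *NR2F1* lower and *NR1H2* higher in shNR4A3 cells without LPS, and *HNF4G* lower there with LPS.

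*PGR*, the progesterone receptor (chr11:101029624-101130524, minus strand), was lower in both knockdown lines in both states. Its shNT libraries held 6.12, 5.73 and 8.66 TPM without LPS and 4.33, 5.75 and 4.41 TPM with LPS. Those of shNR4A2 held 1.62, 1.58 and 1.76 TPM without LPS and 1.18, 2.38 and 1.07 TPM with LPS, and those of shNR4A3 1.53, 2.28 and 1.38 TPM without LPS and 1.56, 1.87 and 1.36 TPM with LPS. Every shNT library lay above every library of the knockdown lines. *PGR* was 4.103-fold lower in shNR4A2 (-2.04 ± 0.15, adjusted p = 3.62e-05) and 3.84-fold lower in shNR4A3 cells (-1.94 ± 0.18, adjusted p = 2.44e-05) without LPS. With LPS the values were 3.04-fold (-1.60 ± 0.24, adjusted p = 0.00606) and 2.92-fold (-1.54 ± 0.14, adjusted p = 0.000443). All 4 calls held when any library was left out. Between the knockdown lines *PGR* differed by -0.10 ± 0.19 without LPS (adjusted p = 0.886) and by -0.06 ± 0.27 with LPS (adjusted p = 0.941). *PGR* exons overlap *PGR-AS1* on the opposite strand over 5.27% of their length. In control cells *PGR* had 1662 counts in shNT, 455 in shNR4A2 and 380 in shNR4A3, where *PGR-AS1* had 38, 19 and 18. *PGR* was not called with LPS in shNT cells (-0.28 ± 0.14, adjusted p = 0.174).

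*NR2F6* (chr19:17231883-17245940, minus strand) was lower in shNR4A3 cells than in shNT. Its libraries, given above, did not overlap with those of shNT in either state. The difference was 1.63-fold without LPS (-0.70 ± 0.13, adjusted p = 0.00402) and 2.99-fold with LPS (-1.58 ± 0.17, adjusted p = 0.000919), and both calls held without each library in turn. In shNR4A2 cells *NR2F6* differed by -0.36 ± 0.15 without LPS (adjusted p = 0.191, and 0.0044 with the block) and -0.44 ± 0.26 with LPS (adjusted p = 0.353, and 0.000242 with the block), so that with the block it was called lower in both lines in both states. *NR2F6* exons overlap those of AC010646.1 over 8.26% of their length, and that gene had no count in any library.

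**Figure D4:**
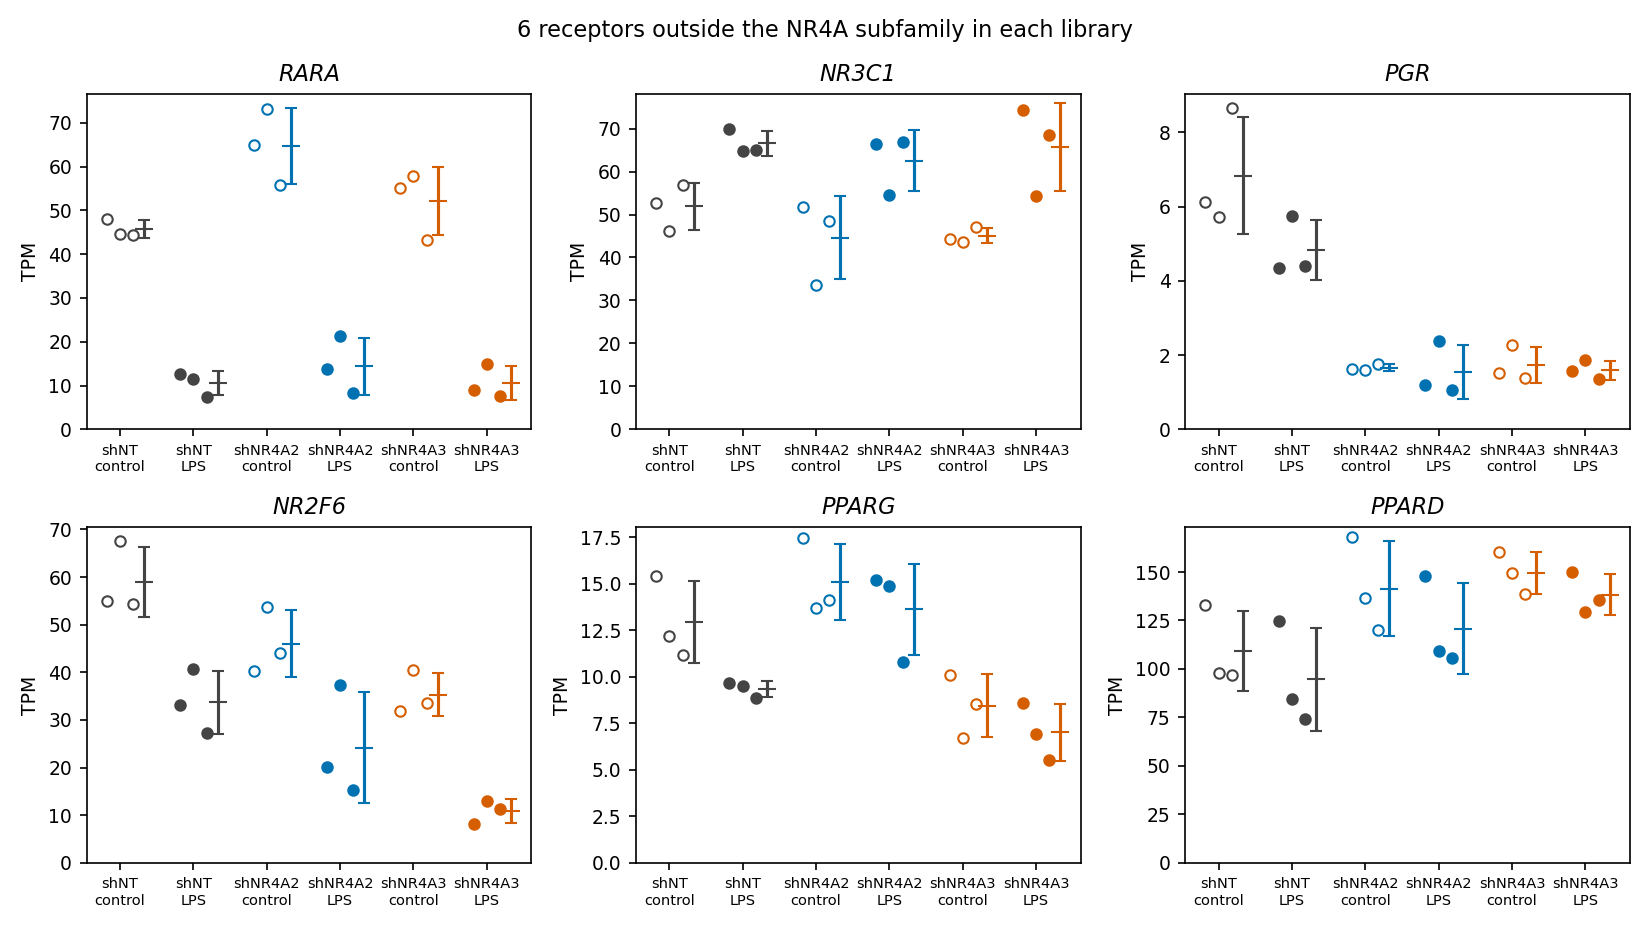
TPM of *RARA*, *NR3C1*, *PGR*, *NR2F6*, *PPARG* and *PPARD* in each library (open, control; filled, LPS; replicates 1 to 3 from left to right), with the mean and SD of 3 beside them. *RARA* is lower and *NR3C1* higher with LPS in every line, *PGR* is highest in shNT cells, and *NR2F6* is lowest in shNR4A3 cells with LPS.

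Each of the remaining calls was lost on leaving out any of 4 or 5 of the 6 libraries. Those fits had no replicate block. With the block and all 6 libraries each of these calls was kept. *RARA* was higher in shNR4A2 cells without LPS (0.50 ± 0.12, adjusted p = 0.0318), and the call was lost on leaving out any of 5 of the 6 libraries (adjusted p 0.0592 to 0.139). With LPS the value was 0.50 ± 0.28, with an adjusted p of 0.338 and of 0.00131 with the block. *PPARG* (PPARγ), the lipid sensor of macrophages and fat cells, held 15.4, 12.2 and 11.2 TPM without LPS and 9.65, 9.53 and 8.87 TPM with LPS in shNT cells. Libraries of shNR4A2 held 17.5, 13.7 and 14.1 TPM without LPS and 15.2, 14.9 and 10.8 TPM with LPS, and those of shNR4A3 10.1, 6.71 and 8.56 TPM without LPS and 8.59, 6.94 and 5.504 TPM with LPS. Its group means were highest in shNR4A2 and lowest in shNR4A3 cells in both states, and the shNR4A2 and shNR4A3 libraries did not overlap. The rise in shNR4A2 cells with LPS (0.60 ± 0.15, adjusted p = 0.0437) lost its call on leaving out any of 5 of the 6 libraries (adjusted p 0.065 to 0.156). In shNR4A3 cells without LPS *PPARG* differed by -0.56 ± 0.18 (adjusted p = 0.0929, and 0.0214 with the block). *NR6A1* (GCNF), a germ cell receptor, held 1.01, 1.23 and 1.39 TPM without LPS and 1.66, 1.19 and 2.03 TPM with LPS in shNT, 0.95, 0.589 and 1.201 TPM without LPS and 0.624, 0.728 and 0.864 TPM with LPS in shNR4A2 and 1.06, 1.17 and 1.26 TPM without LPS and 1.17, 1.34 and 1.72 TPM with LPS in shNR4A3 cells. With LPS no shNR4A2 library reached an shNT library. Its fall (-1.09 ± 0.28, adjusted p = 0.0488) was lost on leaving out any of 5 of the 6 libraries (adjusted p 0.0611 to 0.17).

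*PPARD* held 133, 97.8 and 96.9 TPM without LPS and 125, 84.7 and 74.3 TPM with LPS in shNT cells. Libraries of shNR4A2 held 168, 136 and 119.8 TPM without LPS and 148, 109 and 106 TPM with LPS, and those of shNR4A3 161, 149.5 and 139 TPM without LPS and 149.9, 129 and 136 TPM with LPS. In each line the library of replicate 1 was the highest in both states, and the shNR4A3 libraries lay above those of shNT in both. *PPARD* was higher in shNR4A3 cells without LPS (0.50 ± 0.12, adjusted p = 0.0263), a call lost on leaving out any of 4 of the 6 libraries (adjusted p 0.051 to 0.111), and the difference with LPS was 0.61 ± 0.17 (adjusted p = 0.0691, and 0.000101 with the block). *ESRRA* held 118, 111 and 103 TPM without LPS and 90.2, 80.8 and 83.6 TPM with LPS in shNT, 131, 132 and 117 TPM without LPS and 85.6, 95.6 and 78.1 TPM with LPS in shNR4A2 and 141, 141 and 132 TPM without LPS and 87.02, 94.9 and 81.7 TPM with LPS in shNR4A3 cells. The libraries of shNR4A3 control cells lay above those of shNT control cells. *ESRRA* was higher in shNR4A3 cells without LPS (0.37 ± 0.09, adjusted p = 0.0308), lost on leaving out any of 5 of the 6 libraries (adjusted p 0.0528 to 0.139). *HNF4G*, a hepatocyte nuclear factor of gut and kidney, held 10.2, 13.6 and 15.2 TPM without LPS and 8.41, 10.9 and 8.23 TPM with LPS in shNT cells. Libraries of shNR4A2 held 7.3, 9.004 and 10.9 TPM without LPS and 6.48, 10.7 and 6.296 TPM with LPS, and those of shNR4A3 6.39, 9.08 and 8.82 TPM without LPS and 5.11, 8.81 and 5.47 TPM with LPS. The control libraries of shNR4A3 lay below those of shNT. Its fall in shNR4A3 cells without LPS (-0.64 ± 0.17, adjusted p = 0.0338) was lost on leaving out any of 5 of the 6 libraries (adjusted p 0.0509 to 0.133).

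**Figure D5:**
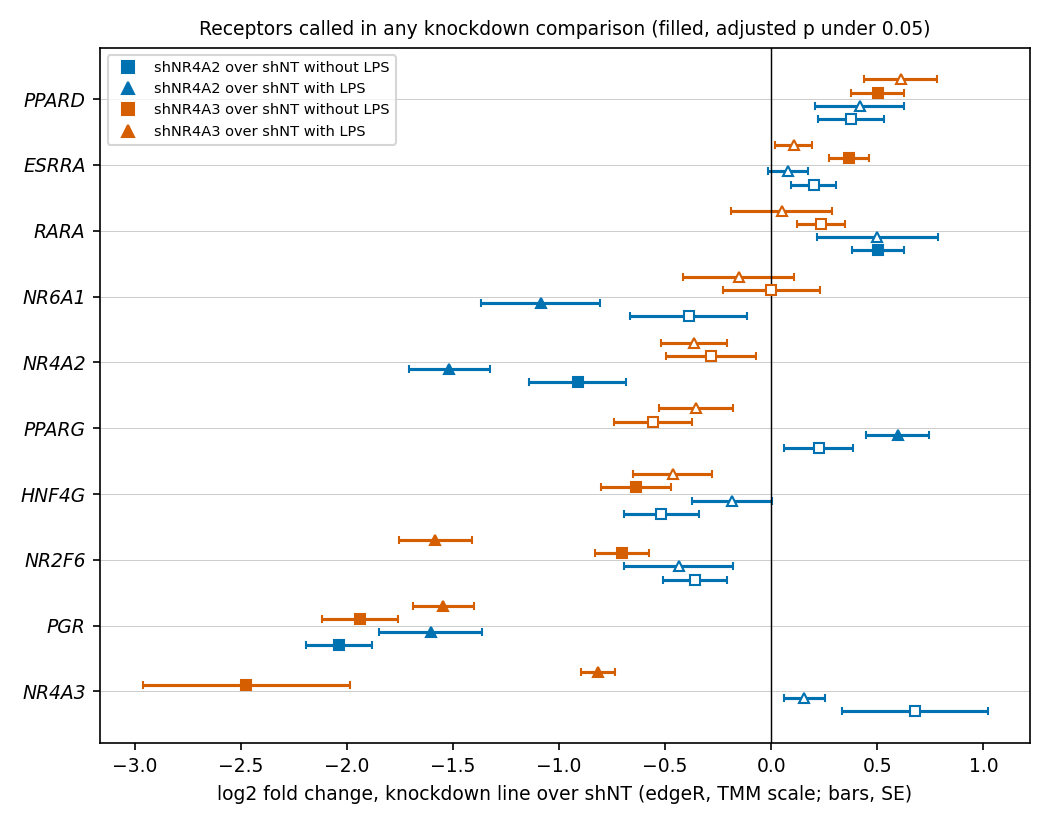
Log2 fold change of a knockdown line over shNT with its SE (bars), blue for shNR4A2 and orange for shNR4A3, squares without and triangles with LPS, for the 10 receptors called in at least 1 of the 4 comparisons; filled symbols passed an adjusted p of 0.05. *PGR* is filled in all 4 comparisons and *NR2F6* in both of shNR4A3. The comparisons of one state share their shNT libraries.

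Compared directly without LPS, shNR4A2 cells had more *NR4A3* (3.15 ± 0.52, adjusted p = 0.00462) and *PPARG* (0.78 ± 0.18, adjusted p = 0.0361) than shNR4A3 cells, 2 of 30 receptors tested, beside 3.08% of all genes (1.94% higher and 1.14% lower). The *PPARG* call was lost without shNR4A2 control replicate 1 (adjusted p = 0.132) or 3 (adjusted p = 0.0521), or shNR4A3 control replicate 2 (adjusted p = 0.109) or 3 (adjusted p = 0.107). With LPS they had more *NR4A3* (0.98 ± 0.10, adjusted p = 0.00238) and less *NR4A2* (-1.15 ± 0.21, adjusted p = 0.0352), 2 of 29 receptors, beside 2.33% of all genes (1.27% higher and 1.06% lower). *NR4A3* and *NR4A2* are the hairpin targets of these lines. Without the block, no untargeted receptor was thus called with LPS, and only *PPARG* was without LPS. The *NR4A2* call was lost on leaving out any of 5 of the 6 libraries (adjusted p 0.056 to 0.098). Under the block, 4 and 10 receptors were called, beside 11.6% and 23.6% of all genes. *PPARG* with LPS was higher in shNR4A2 by 0.95 ± 0.20 (adjusted p = 0.0511, and 4.56e-05 with the block), and *NR2F6* by 1.15 ± 0.29 (adjusted p = 0.0836, and 0.000486 with the block). The other additions with the block were *RARA* and *NR2F6* without LPS, higher in shNR4A2, and with LPS *RARA* and *RXRA* higher and *PPARD*, *NR1D2*, *NR4A1* and *NR6A1* lower in shNR4A2 (log2 from -0.93 to 0.42).

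Whether LPS acted differently in a knockdown line was tested as an interaction over 12 libraries. No receptor of 31 tested and no gene was called for either line (0.0% of genes tested), while 365 genes for shNR4A2 and 824 for shNR4A3 had an unadjusted p under 0.05, and DESeq2 called 2 and 10 genes. Of the receptors none had an unadjusted p under 0.05 for shNR4A2, and *NR4A3* and *NR2F6* did for shNR4A3. The *NR4A3* interaction was 1.65 ± 0.38 (unadjusted p = 0.000559, adjusted p = 0.541), a greater rise with LPS from a lower control level. The *NR2F6* interaction was -0.88 ± 0.22 (unadjusted p = 0.00111, adjusted p = 0.65), a greater fall with LPS than in shNT, and it passed with the block (adjusted p = 0.0181), as did 0.134% of all genes. For *RARA*, *NR4A1* and *PGR* the interactions with shNR4A3 were -0.19 ± 0.27, 0.40 ± 0.29 and 0.39 ± 0.25.

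Genes around the receptors were called in the knockdown lines as well. Their counts stand beside the shares of all genes given above, 6.45% and 6.96% for shNR4A2 and 7.23% and 6.45% for shNR4A3 without and with LPS, and no list was tested against them. Of 11 genes of ligand synthesis and clearance tested without LPS 2 were higher and none lower in shNR4A2, and 1 higher and none lower in shNR4A3. With LPS 4 of 13 were higher in shNR4A2 and 2 of 12 in shNR4A3. *CYP26B1*, which degrades retinoic acid, was higher in shNR4A2 without (2.32 ± 0.49, adjusted p = 0.0159) and with LPS (3.41 ± 0.37, adjusted p = 0.00134), and in shNR4A3 without (1.70 ± 0.47, adjusted p = 0.045) and with LPS (2.27 ± 0.42, adjusted p = 0.0129). Of 6 PPAR targets tested without LPS 3 were higher in shNR4A2 and 2 in shNR4A3, and of 7 tested with LPS 2 in each line. *CD36*, the scavenger receptor that PPARγ induces, was higher in shNR4A3 cells without (log2 2.41 ± 0.21, adjusted p = 1.86e-05) and with LPS (log2 2.43 ± 0.21, adjusted p = 0.000323). *PDK4* was higher in shNR4A2 cells with LPS (1.57 ± 0.29, adjusted p = 0.0151), and *CIART*, a clock repressor, without LPS (1.35 ± 0.36, adjusted p = 0.046). Over the 4 comparisons the median log2 value ran from 0.29 to 0.73 for PPAR targets, from 0.47 to 0.67 for vitamin D and retinoid targets, from 0.37 to 0.58 for ligand genes and from 0.05 to 0.51 for glucocorticoid receptor targets. It ran from -0.17 to 0.15 over the other 4 lists, and from -0.00853 to -0.00103 for all genes tested.

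One LXR target of 9, *PLTP*, which transfers phospholipid to lipoproteins, was lower in each comparison (-0.64 ± 0.14, adjusted p = 0.0166; -0.51 ± 0.11, adjusted p = 0.0241; -0.75 ± 0.13, adjusted p = 0.00242; -0.76 ± 0.09, adjusted p = 0.0019), and none was higher. *TGM2*, a transglutaminase induced by retinoids, was lower in shNR4A3 cells without (-0.95 ± 0.25, adjusted p = 0.0342) and with LPS (-0.96 ± 0.21, adjusted p = 0.0262). Vitamin D and retinoid targets otherwise had 2 of 5 higher in shNR4A2 and 3 of 5 in shNR4A3 without LPS, and 1 of 5 in each with LPS. Glucocorticoid receptor targets had 1 of 8 higher in each line without LPS, 1 of 8 in shNR4A2 with LPS and 3 of 7 in shNR4A3 with LPS. None was lower. Coactivators had 1 of 13 lower in shNR4A3 with LPS and no other call, corepressors had 1 of 11 higher in all comparisons but shNR4A3 without LPS, which had none, and clock genes had at most 1 call in any comparison. Under the block, whose shares of all genes were 23.6%, 28.1%, 14.8% and 21.8%, the calls in shNR4A2 cells without and with LPS and in shNR4A3 cells without and with LPS numbered 8, 7, 2 and 7 for ligand genes, 6, 5, 4 and 3 for PPAR targets and 4, 3, 5 and 4 for vitamin D and retinoid targets. In the same order they numbered 3, 6, 2 and 4 for glucocorticoid receptor targets, 2, 4, 2 and 2 for LXR targets and 3, 2, 1 and 5 for clock genes. Of the glucocorticoid receptor targets 2 were then lower in shNR4A2 cells in each state. Of the LXR targets 1 was higher in shNR4A2 cells with LPS and in shNR4A3 cells in each state. Of the ligand genes 2 were lower in shNR4A3 cells with LPS. Of the PPAR targets 1 was lower in each line without LPS. Coactivators then had 4, 3, 0 and 2 calls and corepressors 5, 5, 1 and 3. No call of a listed gene was lost under the block in these comparisons.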

How the data were processed

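RNA of 18 THP-1 libraries was read as the gene counts and merged exon lengths deposited by the authors, who per the labels trimmed with Trimmomatic 0.36, aligned with STAR 2.5.2b to GRCh38 and counted with featureCounts (Subread 1.5.2). The strand setting, annotation release and treatment of multiply mapped reads are not given in the sources used here. Symbols came from GENCODE 29 (56845 of 57500 genes). Groups came from the sample titles, no 2 libraries were identical, and 0 columns were left unmapped. TPM was computed from counts and length and not tested.

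Each comparison was fitted on its own libraries with edgeR 4.0.16 in R 4.3.3 (filterByExpr, TMM, quasi-likelihood F test), with Benjamini-Hochberg adjustment over all genes tested and a limit of 0.05. 1 marker gene is not reported here. Values per library are given for the NR4A receptors, those called with LPS in shNT cells or between a knockdown line and shNT, and the 5 most abundant. Of the other lists, the 3 largest called rises and falls with LPS and the 2 largest between lines are named. The members and lists were chosen with earlier results of these data known. Deviations of same-numbered replicates from their group means correlated above 0.1 in all pairs of each comparison (0.159 to 0.533) except LPS in shNT cells (0.0598 for replicate 2), so a replicate block was added as an alternative to the others, and its value is given where it changes a receptor's call or moves a count by over 1.5 times. Also tried were DESeq2 1.42.0, edgeR with RLE size factors, all genes unfiltered, a fit of all 18 libraries, a 2-fold minimum, the block and leaving out each library. P-values measure the spread among 3 libraries per group, and counting intervals cover counting error only.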

Additional observations from a re-analysis of the deposited data

How the results depend on the processing

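Of 58 receptor calls, repeated 637 times under the alternatives other than the 2-fold minimum, 549 repeats kept the call, 88 lost it and 0 reversed it, and 38 calls held in all of those repeats. The 2-fold minimum left 27 of the 58 calls. It left 5 receptors (of 15) with LPS in shNT, 7 (of 16) in shNR4A3, 1 (of 3) in shNR4A2 and 2 (of 6) in shNR4A3 against shNT without LPS, and 1 (of 2) between the knockdown lines in each state. Genes then numbered 1188, 1382 and 1574 for LPS in shNT, shNR4A2 and shNR4A3 (of 3909, 3050 and 4312), 344 and 388 for shNR4A2 without and with LPS (of 1019 and 1085), 282 and 350 for shNR4A3 (of 1108 and 1005), and 214 and 149 between the knockdown lines (of 480 and 362). With the replicate block the receptors were 13 (LPS in shNR4A2), 11 and 10 (shNR4A2), 11 and 6 (shNR4A3), 4 and 10 (between the knockdown lines) and 1 (the interaction with shNR4A3), and the genes were 4751, 3733, 4385, 2267, 3401, 1800 and 3666 in the order of the first 7, with 8 and 22 for the interactions. In shNT cells with LPS, where the numbers did not pair the samples by the check used, the block gave 17 receptors in place of 15, with NR2F2 and NR6A1 added. The share of all genes called with that block is not reported here, so these additions are no result about the receptors. The fit of all 18 libraries gave 13 receptors and 4601 genes for LPS in shNR4A2, 1691 genes for shNR4A2 with LPS, 3 receptors for shNR4A3 without LPS, and 5 receptors and 1032 genes between the knockdown lines with LPS. Without the filter there were 5 receptors and 1611 genes for shNR4A2 without LPS, 7 and 1843 with LPS, 6 and 1839 for shNR4A3 with LPS, 838 genes between the knockdown lines without and 4 receptors and 1102 genes with LPS, 29 genes for the interaction with shNR4A2, and 1 receptor and 138 genes for that with shNR4A3. DESeq2 gave 4 receptors and 700 genes between the knockdown lines with LPS, and 2 and 10 genes for the interactions. Leaving out each library in turn gave 11 to 14 receptors and 3033 to 3461 genes for LPS in shNT, 6 to 10 and 2113 to 3375 in shNR4A2, 12 to 15 and 3136 to 4863 in shNR4A3, 1 to 3 and 517 to 1128 for shNR4A2 without LPS, 2 to 4 and 342 to 1477 with LPS, 3 to 6 and 649 to 975 for shNR4A3 without LPS, 3 to 6 and 383 to 1693 with LPS, 1 to 2 and 249 to 470 between the knockdown lines without LPS, 1 to 2 and 94 to 217 with LPS, and 0 receptors with 0 to 8 and 0 to 44 genes for the interactions. The number of expressed receptors stayed at 27 on leaving out each library in turn. It depends on the limit of 1 TPM. A lower limit can add NR1I2, with a highest group mean of 0.866 TPM. A higher limit can drop NR2F2 and NR6A1, with highest group means of 1.39 and 1.63 TPM. Other counts stayed within 1.5 times their value. The causes of these changes were not tested. With 3 libraries per group, receptors with few counts, such as NR5A2 and NR4A3 in control cells, are limited by depth.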
